A study of Mus musculus with 70 samples.

Results

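Abhd4, Tst, Magi1 and Fam189a2, 4 of the 50789 gene identifiers counted by RNA-seq, were followed in mice lacking the short or the long isoform of Capicua (gene symbol Cic). They were picked from the outcome itself: each departed from WT the same way in Cic-L-KO lung, cortex and cerebellum. Their Cic-L-KO values therefore chose them and are given as a description, without a test. Of 14306 genes tested in all 3 tissues, 107 differed from WT in one direction in all of them at an adjusted p under 0.05, 69 of them higher and 38 lower in Cic-L-KO. Ordered by the largest of their 3 p-values, Abhd4 was in place 3, Tst in place 6, Magi1 in place 8 and Fam189a2 in place 9. Abca8a and Anxa3 followed in places 10 and 11. Just inside the threshold lay Ube2h, whose largest adjusted p was 0.0497, and just outside it lay Mall at 0.0502.

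The 9 groups were WT, Cic-S-KO (short isoform knocked out) and Cic-L-KO (long isoform knocked out) samples of lung at postnatal day 6 (P6), and of cortex and cerebellum at an age of 12 weeks. There were 8 samples in a group, or 7 in Cic-S-KO cortex and in Cic-S-KO cerebellum. The WT samples pooled littermates of both knockout lines, so neither knockout was compared with WT of its own line alone, and both were compared with the same WT samples. Strain, sex, further alleles and the design of the knockout alleles are not given in the sources used here. The labels number the samples within a group without saying that they came from separate animals, so the p-values measure only the spread between these samples. Lung carries batch label 1 and both brain regions batch label 2, and tissue, age and batch cannot be told apart between lung and brain.

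Capicua is a DNA-binding repressor of the HMG-box family that works with ATXN1 and ATXN1L, and its short and long isoforms start from different promoters and differ at the amino terminus. Genes it holds down, such as the PEA3 group of ETS factors, rise when it is lost. The 4 genes described here do different jobs. Abhd4 encodes a lipase that makes precursors of N-acylethanolamines, a family of lipid mediators that includes the endocannabinoid anandamide. Tst encodes rhodanese, the mitochondrial thiosulfate sulfurtransferase known for cyanide detoxification and for a step of sulfide oxidation. Magi1 encodes a multi-PDZ scaffold protein of tight junctions and synapses. Fam189a2, also called Entrep1, encodes a membrane protein that activates the ubiquitin ligase ITCH in the endocytosis of the chemokine receptor CXCR4.

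Libraries held between 17798655 and 35523037 counted reads. Lung markers summed to between 17580 and 25400 CPM in lung samples and to at most 1.78 CPM in brain samples, where CPM is the usual depth-normalised read count, with library sizes scaled within a tissue. Lung Cic-S-KO replicate 5 stood apart by 13.4 CPM of cortical excitatory neuron markers, against at most 0.583 CPM in the other Cic-S-KO lungs. Cic itself averaged 138.5, 172.0 and 134.8 CPM in WT, Cic-S-KO and Cic-L-KO lung, 161.6, 250.6 and 297.7 CPM in cortex, and 191.7, 213.3 and 212.5 CPM in cerebellum. The gene count adds the isoforms together, so it checks neither knockout label.

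In GENCODE M21 on GRCm38 all 4 are protein-coding genes, on 4 chromosomes, none of them the chromosome 7 of Cic. Abhd4 (ENSMUSG00000040997.13) lies on the plus strand at chr14:54254188-54270637. Tst (ENSMUSG00000044986.10) lies on the minus strand at chr15:78399556-78405907. Magi1 (ENSMUSG00000045095.16) lies on the minus strand at chr6:93675455-94283917, and its 608463 bases make it by far the longest of the 4. Fam189a2 (ENSMUSG00000071604.4) lies on the minus strand at chr19:23972750-24031019. No exon base of these genes is shared with another annotated gene, and none of the 4 fell below 201 reads in any of the 70 libraries.

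RefSeq start windows on GRCm38.p6, each running from 250 bases before to 50 bases after a start, matched 3 of the 4 genes, Abhd4, Magi1 and Fam189a2. Stretches before a start of Fam189a2 and Magi1 are shown because the windows of these genes bracket the range of CpG density among the 3 matched genes while both were higher in Cic-L-KO. Every Magi1 window lies inside the gene, and none covers its annotated 5′ end. Each is written 5′ to 3′ along the gene, and capitals mark CG dinucleotides.
Fam189a2, 250 bases before its start, minus strand, chr19:24031020-24031269: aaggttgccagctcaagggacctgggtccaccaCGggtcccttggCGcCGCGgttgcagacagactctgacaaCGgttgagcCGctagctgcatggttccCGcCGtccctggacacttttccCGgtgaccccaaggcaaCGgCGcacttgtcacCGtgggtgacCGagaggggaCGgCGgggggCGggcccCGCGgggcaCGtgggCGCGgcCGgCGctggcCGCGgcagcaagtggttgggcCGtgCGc
Magi1, 250 bases before a start inside the gene, minus strand, chr6:93913691-93913940: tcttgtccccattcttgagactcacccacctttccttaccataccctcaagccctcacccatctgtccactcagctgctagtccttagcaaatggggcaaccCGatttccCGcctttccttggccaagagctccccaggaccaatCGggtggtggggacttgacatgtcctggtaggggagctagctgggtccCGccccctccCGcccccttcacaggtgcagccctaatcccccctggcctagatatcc
The Fam189a2 stretch holds 27 CG dinucleotides and the Magi1 stretch holds 5. Over the full window of 300 bases the Fam189a2 start had 38 CG dinucleotides at 73.7% GC, the starts of Abhd4 had 24 and 15 at 57.3% and 59.7% GC, and the starts of Magi1 had 7 and 8 at 58.7% GC. The median of 32851 mouse windows was 7 CG dinucleotides at 52.7% GC. Capicua octamers were searched on both strands as TGAATGAA, TGAATGGA, TCAATGAA and TCAATGGA, which differ from one another in at most 2 letters. The 5 windows of these 3 genes held 0 of them, and 3.84% of all windows held at least 1. That says only that those letters are not in these windows.

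Abhd4 had WT medians between 59.2 and 70.5 CPM in the 3 tissues, and in each its median was highest in Cic-L-KO. In lung it ran from 65.2 to 73.0 CPM in WT (median 70.5), from 67.1 to 80.8 in Cic-S-KO (median 71.0) and from 72.1 to 91.6 in Cic-L-KO (median 84.6). In cortex it ran from 49.2 to 66.3 CPM in WT (median 59.2), from 51.8 to 71.8 in Cic-S-KO (median 60.0) and from 72.2 to 87.6 in Cic-L-KO (median 76.3). In cerebellum it ran from 62.2 to 74.98 CPM in WT (median 68.1), from 68.3 to 80.0 in Cic-S-KO (median 73.8) and from 83.6 to 92.6 in Cic-L-KO (median 90.2). The Cic-L-KO range lay wholly above WT in both brain regions. In lung 7 of 8 Cic-L-KO samples lay above every WT sample, and replicate 2 lay inside the WT range. The mean Cic-L-KO level was 1.20, 1.34 and 1.30 times WT in lung, cortex and cerebellum, that is log2 differences of 0.26 (SE 0.045), 0.42 (SE 0.062) and 0.38 (SE 0.041). The Cic-S-KO range overlapped WT in every tissue.

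Tst was the only one of the 4 with every Cic-L-KO sample above every WT sample in lung. In lung it ran from 33.1 to 42.9 CPM in WT, from 39.7 to 52.4 in Cic-S-KO (median 43.6) and from 44.1 to 56.1 in Cic-L-KO (median 46.5). In cortex it ran from 19.99 to 28.4 CPM in WT (median 21.8), from 20.2 to 29.8 in Cic-S-KO (median 22.8) and from 29.4 to 37.4 in Cic-L-KO (median 32.2). In cerebellum it ran from 27.2 to 36.7 CPM in WT (median 33.7), from 32.9 to 41.3 in Cic-S-KO (median 37.7) and from 37.6 to 49.3 in Cic-L-KO (median 46.9). All 8 Cic-L-KO samples lay above every WT sample in each of the 3 tissues. The gap between the lowest Cic-L-KO and the highest WT sample was narrow, at 1.20 CPM in lung, 1.03 CPM in cortex and 0.933 CPM in cerebellum. The mean Cic-L-KO level was 1.29, 1.43 and 1.37 times WT in lung, cortex and cerebellum, with log2 differences of 0.36 (SE 0.067), 0.52 (SE 0.075) and 0.45 (SE 0.060).

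Magi1 had the smallest Cic-L-KO difference of the 4 genes in each tissue and the smallest spread between samples in cortex. In lung it ran from 62.98 to 75.02 CPM in WT (median 71.99), from 72.9 to 84.3 in Cic-S-KO (median 75.8) and from 73.4 to 94.7 in Cic-L-KO (median 82.1). In cortex it ran from 134.4 to 152.4 CPM in WT (median 142.5), from 127.2 to 141.6 in Cic-S-KO (median 139.6) and from 163.8 to 185.0 in Cic-L-KO (median 176.3). In cerebellum it ran from 84.4 to 98.2 CPM in WT (median 89.6), from 81.2 to 92.5 in Cic-S-KO (median 84.8) and from 100.9 to 117.0 in Cic-L-KO (median 108.0). The Cic-S-KO samples leaned to the opposite side of WT in lung and brain, upward in lung, with 6 of 8 above every WT sample, and downward in cortex and cerebellum, with 2 and 3 of 7 below every WT sample. In lung 7 of 8 Cic-L-KO samples lay above every WT sample, and replicate 4 did not. The log2 differences between Cic-L-KO and WT were 0.24 (SE 0.047), 0.30 (SE 0.034) and 0.25 (SE 0.036) in lung, cortex and cerebellum.

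Fam189a2 differed most in level between lung and brain and had the largest Cic-L-KO difference of the 4 in both brain regions. In lung it ran from 119.4 to 141.0 CPM in WT (median 129.1), from 125.4 to 169.8 in Cic-S-KO (median 135.5) and from 137.6 to 173.3 in Cic-L-KO (median 162.5). In cortex it ran from 9.54 to 12.9 CPM in WT (median 10.9), from 11.3 to 13.2 in Cic-S-KO (median 12.5) and from 14.6 to 19.3 in Cic-L-KO (median 16.6). In cerebellum it ran from 10.6 to 14.2 CPM in WT (median 12.6), from 13.3 to 17.7 in Cic-S-KO (median 14.7) and from 15.6 to 24.4 in Cic-L-KO (median 19.8). Cic-L-KO and WT did not overlap in either brain region, and in lung 7 of 8 Cic-L-KO samples lay above every WT sample, with replicate 3 inside the WT range. The mean Cic-L-KO level was 1.22 times WT in lung, 1.57 times in cortex and 1.56 times in cerebellum, with log2 differences of 0.29 (SE 0.059), 0.65 (SE 0.070) and 0.64 (SE 0.079).

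**Figure D1:**
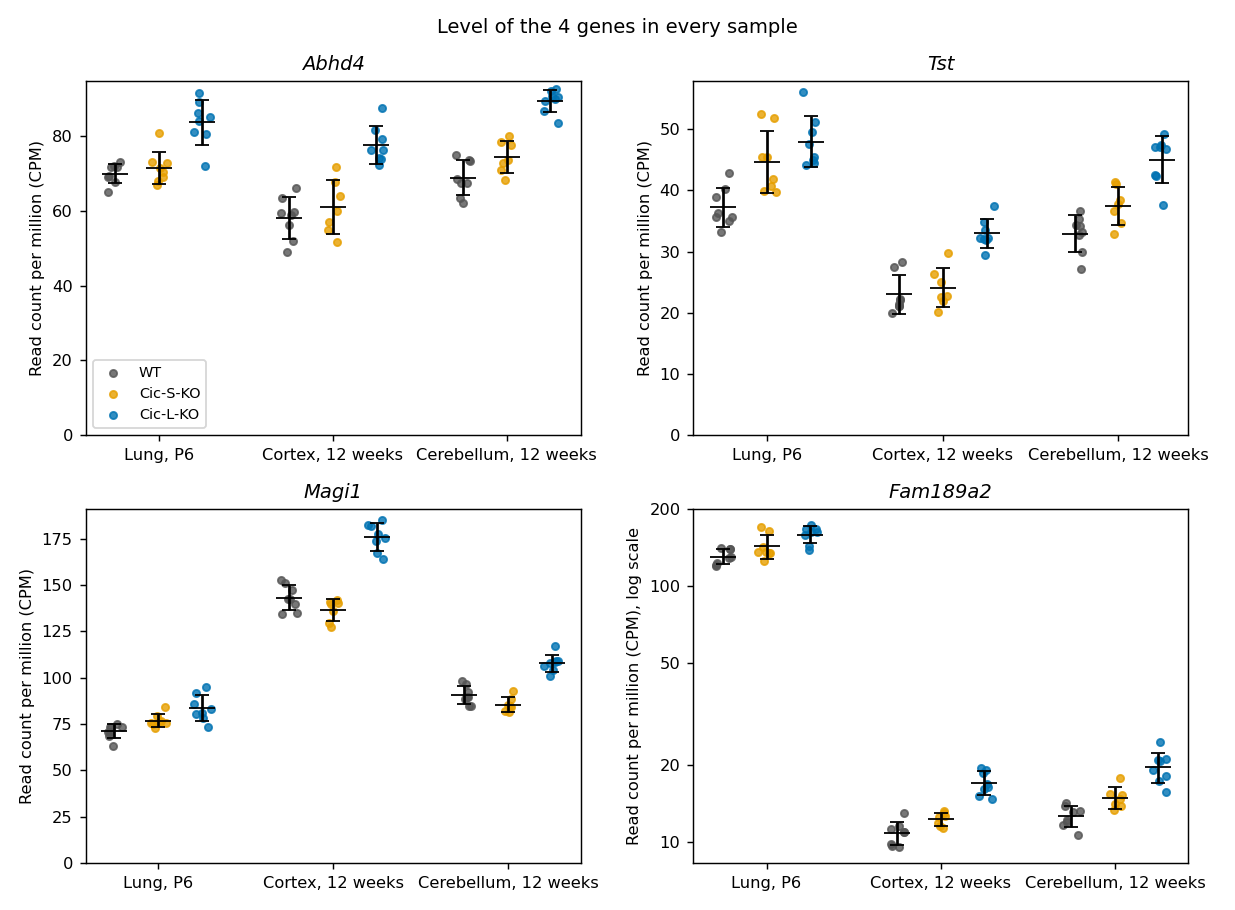
Each point is 1 sample, with its normalised read count (CPM) on the vertical axis (log scale for Fam189a2), the 3 tissues along the horizontal axis and genotype by colour; the black marks are the group mean ± SD. Cic-L-KO samples of Magi1 in cortex sit between 163.8 and 185.0 CPM, above the 134.4 to 152.4 CPM of WT.

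The 1 lung library that kept Abhd4, Magi1 or Fam189a2 from full separation was a different one for each gene, replicates 2, 4 and 3. For scale, every Cic-L-KO sample lay above every WT sample in 0.587% of the genes tested in lung, 6.0% in cortex and 2.31% in cerebellum. At an adjusted p under 0.05, 4.89% of genes differed between Cic-L-KO and WT in lung, 43.2% in cortex and 21.5% in cerebellum, in either direction. Since these contrasts chose the 4 genes, nothing is read from that comparison. These are bulk tissues, in which fewer cells of a type and less RNA per cell cannot be told apart.

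The Cic-L-KO groups headed the order of mean levels for Abhd4: cerebellum at 89.5 ± 2.95 CPM (SD, n = 8), lung at 83.7 ± 5.98 and cortex at 77.7 ± 5.02 had the 3 highest means, although cortex Cic-L-KO was within 1 SD of cerebellum Cic-S-KO, the next group, at 74.6 ± 4.28. Cortex WT closed the Abhd4 order at 58.2 ± 5.64 CPM, within 1 SD of cortex Cic-S-KO at 61.1 ± 7.15. For Tst the order ran from lung Cic-L-KO at 47.9 ± 4.16 CPM to cortex WT at 23.0 ± 3.14, and cortex Cic-L-KO at 33.0 ± 2.37 did not differ from cerebellum WT at 33.0 ± 3.04 beyond their spread. Cortex thus had the lowest mean CPM of the tissues for both genes in each genotype. CPM was scaled within each tissue, and lung also differs from brain in age and batch, so orders across tissues are descriptions. Magi1 ran from cortex Cic-L-KO at 175.7 ± 7.46 CPM to lung WT at 71.0 ± 3.79, and cortex WT and Cic-S-KO, neighbours in that order, were less than 1 SD apart. Fam189a2 ran from lung Cic-L-KO at 158.8 ± 12.3 CPM to cortex WT at 10.8 ± 1.14, with the 3 lung groups above all 6 brain groups. The coefficient of variation within groups lay between 3.30% and 11.7% for Abhd4, 7.19% and 13.6% for Tst, 4.24% and 8.35% for Magi1, and 5.91% and 13.9% for Fam189a2.

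Per kilobase of exon, the WT levels of the 4 genes fell in a different order in each tissue. In WT lung Fam189a2 was highest at 45.1 ± 3.09 RPKM (CPM per kilobase of exon; SD, n = 8), followed by Abhd4 at 21.4 ± 0.804, Tst at 11.8 ± 1.01 and Magi1 at 6.71 ± 0.359. In WT cortex Abhd4 led at 17.7 ± 1.72 RPKM, followed by Magi1 at 13.5 ± 0.635, Tst at 7.27 ± 0.992 and Fam189a2 at 3.74 ± 0.395. In WT cerebellum Abhd4 led at 21.02 ± 1.44 RPKM, followed by Tst at 10.4 ± 0.963, Magi1 at 8.55 ± 0.469 and Fam189a2 at 4.35 ± 0.414. Fam189a2 thus went from the top of the 4 in lung to the bottom in both brain regions, across samples that also differ in age and batch.

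Whether the 4 genes also differ between cortex and cerebellum of WT mice was tested in a joint edgeR fit of the 46 brain samples, in which 73.5% of genes differed. The fit treats the cortex and cerebellum samples as independent, and whether the same number in both regions names 1 animal is not given in the sources used here. Magi1 was higher in cortex, by 0.74 on the log2 scale (SE 0.034, adjusted p = 1.12e-25). Tst was lower in cortex, with a log2 difference of -0.43 (SE 0.071, adjusted p = 3.57e-07). Abhd4 was lower in cortex by a smaller step of -0.16 (SE 0.054, adjusted p = 0.00641). Fam189a2 did not pass, at -0.14 (SE 0.075, adjusted p = 0.0966), and passed when the GC content of transcripts was adjusted for, at -0.20 (adjusted p = 0.0125).

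Loss of the short isoform was tested against WT with edgeR's quasi-likelihood test, adjusted over all genes of a tissue. This contrast shares its WT samples with the one that chose the genes. Of the 12 tests, 4 genes in 3 tissues, 1 passed: Tst rose in Cic-S-KO lung, 1.20-fold or 0.26 on the log2 scale (SE 0.066, adjusted p = 0.00786), with 4 of 8 samples above every WT sample. In lung 15.7% of all genes passed, in cortex 6.53% and in cerebellum 8.23%. Without lung Cic-S-KO replicate 5 the Tst difference was 0.25 (adjusted p = 0.0147). Macrophage markers moved in the same lungs: 3 of 5 were higher in Cic-S-KO (2 of 5 without replicate 5). Their summed level was 253.3 to 342.8 CPM against 195.9 to 248.5 in WT. In Cic-L-KO lung 2 of 5 were also higher (1 with GC content adjusted for), with a summed level of 228.7 to 279.0 CPM. The part of these markers in the Tst levels was not tested.

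The other 11 Cic-S-KO tests did not pass, and their 95% intervals bound the differences. Where an interval leaves out 0, edgeR's unadjusted p was under 0.05. For Abhd4 the log2 difference was 0.03 in lung (95% interval -0.06 to 0.12), 0.07 in cortex (-0.06 to 0.20) and 0.11 in cerebellum (0.03 to 0.20), with adjusted p of 0.669, 0.564 and 0.0866. Tst gave 0.07 in cortex (95% interval -0.09 to 0.22, adjusted p = 0.666) and 0.19 in cerebellum (0.06 to 0.31, adjusted p = 0.0613). Magi1 gave 0.11 in lung (95% interval 0.02 to 0.21, adjusted p = 0.0977), -0.07 in cortex (-0.14 to 0.001, adjusted p = 0.255) and -0.08 in cerebellum (-0.16 to -0.008, adjusted p = 0.178). Magi1 was therefore the only one of the 4 with fitted Cic-S-KO differences below 0, in cortex and cerebellum, and neither passed. Fam189a2 gave 0.13 in lung (95% interval 0.02 to 0.25), 0.18 in cortex (0.04 to 0.33) and 0.24 in cerebellum (0.08 to 0.40), with adjusted p of 0.126, 0.122 and 0.0641. The cerebellar values of Tst and Fam189a2 lay close to the threshold and crossed it with DESeq2, at adjusted p of 0.0441 and 0.0420. Each also crossed it with 1 other edgeR setting, given in the closing section, so these calls depend on the fit. On counts simulated for the Cic-S-KO comparison in lung, 9.74% of DESeq2 calls and 3.89% of edgeR calls were false. That simulation used changes of 1 on the log2 scale and ran DESeq2 in lung only, so it does not weigh the cerebellar values.

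**Figure D2:**
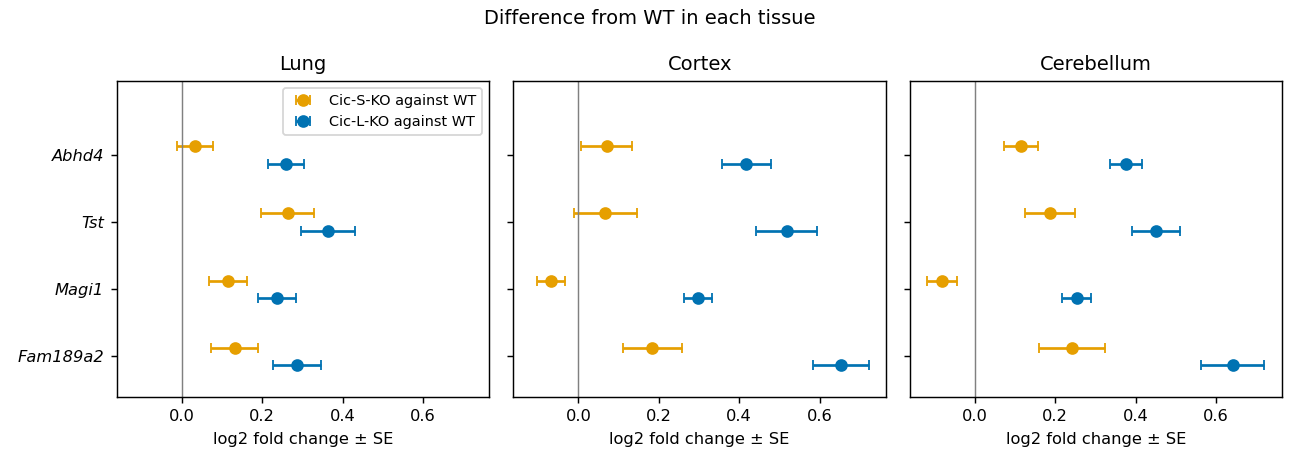
Horizontal axes give the log2 fold change from WT with its SE (bars) for each of the 4 genes, by tissue, with Cic-S-KO and Cic-L-KO in different colours. Every Cic-L-KO point lies to the right of its Cic-S-KO counterpart, the closest pair being Tst in lung at 0.36 and 0.26.

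The 2 knockouts are set side by side here without a test, since the Cic-L-KO samples chose the genes. In cortex the log2 level in Cic-S-KO minus that in Cic-L-KO was -0.35 (SE 0.064) for Abhd4, -0.45 (SE 0.078) for Tst, -0.37 (SE 0.036) for Magi1 and -0.47 (SE 0.072) for Fam189a2. In cerebellum it was -0.26 (SE 0.042) for Abhd4, -0.26 (SE 0.062) for Tst, -0.34 (SE 0.038) for Magi1 and -0.40 (SE 0.081) for Fam189a2. The groups did not overlap for Abhd4, Magi1 and Fam189a2 in cortex and for Abhd4 and Magi1 in cerebellum, where 5.26% and 1.61% of all genes had every Cic-S-KO sample below every Cic-L-KO sample. With the share of mitochondrial reads as a covariate the cortex values were -0.18 for Abhd4, -0.26 for Tst and -0.47 for Magi1. In lung the differences were smaller, -0.23 (SE 0.045) for Abhd4, -0.10 (SE 0.066) for Tst, -0.12 (SE 0.047) for Magi1 and -0.16 (SE 0.059) for Fam189a2, and the ranges overlapped for all 4, as they did for all but 0.623% of genes in that direction.

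Cortex and cerebellum were also compared in how each knockout differed from WT. For Cic-S-KO none of the 4 genes passed the test of that difference, in which 4.50% of genes did: the values were -0.05 (SE 0.078, adjusted p = 0.797) for Abhd4, -0.12 (SE 0.103, adjusted p = 0.564) for Tst, 0.01 (SE 0.050, adjusted p = 0.932) for Magi1 and -0.06 (SE 0.109, adjusted p = 0.816) for Fam189a2. Unadjusted, 0 of these 4 had p under 0.05 with edgeR, and the DESeq2 fit called none either. For Cic-L-KO the difference of the differences, given without a test, was 0.04 for Abhd4, 0.07 for Tst, 0.04 for Magi1 and 0.01 for Fam189a2 (SE 0.075, 0.099, 0.048 and 0.104). Since the genes were chosen for the same direction in both regions, nothing is read from these values.

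Abhd4 and Tst each face a second gene across a short gap, and those neighbours were read as a check on the locus. Dad1, a subunit of the oligosaccharyltransferase, starts 83 bases from Abhd4 on the opposite strand, and 226 of the 250 bases before the RefSeq start of Abhd4 lie in a Dad1 exon. Dad1 passed in 0 of the 6 contrasts with WT, with edgeR or DESeq2 and also at an unadjusted p under 0.05: its log2 differences in Cic-L-KO were 0.03 in lung (adjusted p = 0.787), 0.02 in cortex (adjusted p = 0.636) and -0.008 in cerebellum (adjusted p = 0.925). Its mean level in Cic-L-KO cortex was 51.5 ± 1.98 CPM against 50.7 ± 2.37 in WT (SD, n = 8 each). Mpst, a paralog of Tst that encodes mercaptopyruvate sulfurtransferase, lies 508 bases away head to head. Mpst rose in Cic-L-KO cerebellum by 0.15 (adjusted p = 0.0376; 0.09 and adjusted p = 0.169 with GC content adjusted for), and gave 0.11 in lung (adjusted p = 0.413) and 0.14 in cortex (adjusted p = 0.055). The differences between each pair of neighbours were not tested.

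**Figure D3:**
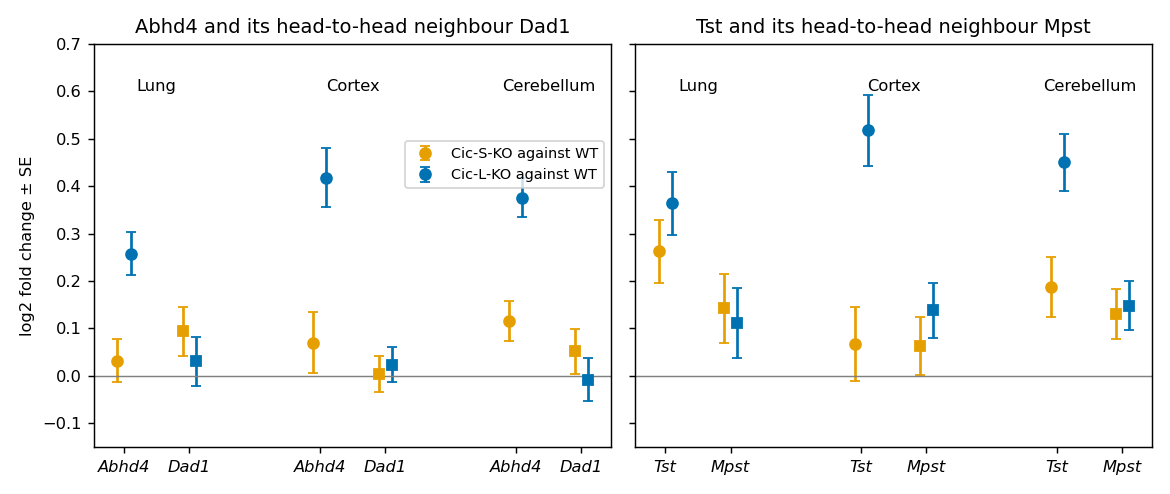
Vertical axes give the log2 fold change from WT with its SE (bars) for Abhd4 (circles) and Dad1 (squares), left, and for Tst (circles) and Mpst (squares), right, in each tissue and by knockout. Dad1 in Cic-L-KO stays between -0.008 and 0.03 while Abhd4 lies between 0.26 and 0.42.

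The neighbours of Magi1 and Fam189a2 are farther off and moved in other patterns. Adamts9, 731962 bases from Magi1, was higher in Cic-L-KO lung (0.31, adjusted p = 0.0159) and lower in Cic-S-KO lung (-0.28, adjusted p = 0.0111). Slc25a26, 216413 bases away on the other side, fell in Cic-L-KO cortex (-0.33, adjusted p = 3.77e-05), where Magi1 was higher. Beside Fam189a2, Apba1 rose in Cic-L-KO cortex (0.75, adjusted p = 1.09e-14) and gave -0.03 in lung and 0.03 in cerebellum, neither past the threshold.

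Genes of each member's pathway were followed next, from lists that leave out the member itself. Of 20 genes of N-acylethanolamine and endocannabinoid lipids, Abhd4 included, 16 others were tested in cortex. In Cic-L-KO cortex 2 rose and 7 fell, with a median log2 difference of -0.10 against 0.01 over all genes, of which 21.4% rose and 21.9% fell. Among those that fell were Faah, which degrades anandamide (-0.35, adjusted p = 6.86e-08), the cannabinoid receptor Cnr1 (-0.23, adjusted p = 7.96e-06), Dagla, which makes 2-arachidonoylglycerol (-0.29, adjusted p = 8.14e-05), and the lipase Abhd12 (-0.18, adjusted p = 5.67e-05). In Cic-L-KO cerebellum 4 of 16 rose and 0 fell (10.9% and 10.6% of all genes), with Pla2g16 first at 0.23 (adjusted p = 7.18e-05), and in Cic-L-KO lung 3 of 15 rose and 0 fell (2.62% and 2.28% of all genes), namely Gde1 (0.28, adjusted p = 0.000598), Gdpd1 (0.23, adjusted p = 0.0155) and Naaa (0.29, adjusted p = 0.029). With GC content adjusted for 2 rose and 1 fell in cerebellum, and with the share of mitochondrial reads as a covariate 1 rose there and 0 rose and 8 fell in cortex. Abhd5, a paralog of Abhd4, passed in 0 of the 6 contrasts with edgeR or DESeq2 (1 at an unadjusted p under 0.05) and differed by 0.02 in Cic-L-KO cortex (adjusted p = 0.864). Neuron markers moved in those cortices: 4 of 5 fell in Cic-L-KO, with a summed level of 3925 to 4696 CPM against 5513 to 6111 in WT, and their part in the lower endocannabinoid genes was not tested.

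Around Tst, 12 other genes of sulfide oxidation and sulfur transfer were tested in each tissue. Cbs, which makes cystathionine and hydrogen sulfide, rose in Cic-L-KO cortex (0.55, adjusted p = 5.88e-07) and cerebellum (0.38, adjusted p = 1.47e-05). Cdo1, the cysteine dioxygenase, rose in Cic-L-KO lung (0.29, adjusted p = 0.0148), and Txnrd2 fell in Cic-L-KO cortex (-0.36, adjusted p = 0.000709). In all, 1 rose and 0 fell in Cic-L-KO lung, 1 rose and 1 fell in cortex, and 3 rose and 0 fell in cerebellum, where 4.89%, 43.2% and 21.5% of all genes differed in either direction, with list medians of 0.09, 0.001 and 0.05. Of the 3 that rose in cerebellum, Cbs and Tstd3 still passed with GC content adjusted for, and Mpst did not. With the mitochondrial covariate 1 gene of the list rose there, a count that does not name it. In Cic-S-KO 0 of the 12 passed in any tissue with edgeR or DESeq2, including lung, where Tst did, and 3 in lung, 3 in cortex and 4 in cerebellum had an unadjusted p under 0.05. The whole-tissue medians over all genes were -0.001, 0.01 and 0.004 for the same Cic-L-KO contrasts.

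Around Magi1, tight junction and scaffold genes were followed. Of 17 tested besides Magi1, 7 rose and 2 fell in Cic-L-KO cortex (median 0.17; 21.4% and 21.9% of all genes), 10 rose and 1 fell in cerebellum (median 0.23; 10.9% and 10.6% of all genes), and 0 passed in lung with edgeR or DESeq2 (median 0.05; 3 at an unadjusted p under 0.05). With the mitochondrial share as a covariate 5 rose and 1 fell in cerebellum. Among those that rose were the angiomotin family members Amotl1 in cortex (0.45, adjusted p = 2.01e-07) and Amot in cerebellum (0.39, adjusted p = 1.42e-06), and Tjp1, which encodes ZO-1, in cerebellum (0.29, adjusted p = 3.67e-05). Among the paralogs of Magi1, Magi2 fell in Cic-L-KO cortex (-0.15, adjusted p = 0.00778) and rose in cerebellum (0.23, adjusted p = 0.000169), while Magi3 rose in cortex (0.25, adjusted p = 6.28e-06) and gave 0.18 in cerebellum (adjusted p = 0.163). In lung Magi2 gave 0.19 (adjusted p = 0.405) and Magi3 gave -0.05 (adjusted p = 0.785).

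Endothelial markers moved with the tight junction genes of the brain. In Cic-L-KO cerebellum 5 of 5 endothelial markers rose (median 0.64), and their summed level was 102.1 to 120.4 CPM against 56.9 to 85.1 in WT. In Cic-L-KO cortex 3 of 5 rose (median 0.37), with a summed level of 91.8 to 126.0 CPM against 63.3 to 110.9 in WT. In Cic-L-KO lung 0 of 5 passed with edgeR, with DESeq2 or at an unadjusted p under 0.05. There 3 of 5 alveolar type 1 markers rose, with a summed level of 2178 to 2541 CPM against 1786 to 2130 in WT. No endothelial marker was at 0 in any group, and the part of these cell types in the levels of the 4 genes and of their lists was not tested. In Cic-S-KO lung, where 15.7% of all genes differed in either direction, 1 tight junction gene rose and 5 fell: Tjp3 rose by 0.61 (adjusted p = 4.81e-05), and Jam2 (-0.31, adjusted p = 0.000364) and Amotl1 (-0.24, adjusted p = 0.00499) were among those that fell, where 2 of 5 endothelial markers also fell.

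Around Fam189a2, both of its paralogs rose in Cic-L-KO cortex, Fam189a1 by 0.32 (adjusted p = 4.9e-09) and Fam189b by 0.23 (adjusted p = 0.00083). Fam189a1 also rose in Cic-L-KO cerebellum (0.25, adjusted p = 0.0155), where Fam189b gave 0.13 (adjusted p = 0.0669), and neither passed in lung. In WT samples Fam189a1 was at 16.2 RPKM in cortex, 2.96 in cerebellum and 0.638 in lung, where Fam189a2 was at 3.74, 4.35 and 45.1 and Fam189b at 9.92, 7.14 and 4.20. Of the 11 genes tested from the list of FAM189 paralogs, NEDD4-family ubiquitin ligases and the CXCR4 axis, 3 rose and 6 fell in Cic-L-KO cortex, where 21.4% of all genes rose and 21.9% fell. With GC content adjusted for, 4 of them rose and 4 fell. ITCH, the ligase that FAM189A2 is known to activate, is encoded by Itch, which fell by 0.19 in cortex (adjusted p = 2.08e-05; 0.11 lower and adjusted p = 0.00469 with GC content adjusted for) and by 0.11 in cerebellum (adjusted p = 0.0341; 0.05 lower and adjusted p = 0.299 with GC content adjusted for). Cxcl12, the ligand of CXCR4, rose in Cic-L-KO cortex (0.40, adjusted p = 0.00243) and cerebellum (0.48, adjusted p = 7.18e-05), and in Cic-S-KO cerebellum (0.42, adjusted p = 0.00218). In Cic-L-KO lung 0 of 10 genes of this list passed with edgeR or DESeq2, and 2 had an unadjusted p under 0.05.

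Whether the 4 genes vary together from sample to sample was asked within groups, after taking away each group mean, so that the knockout differences that chose the genes play no part. Over 18 pairs of genes and tissues, 3 passed a permutation test within groups after Benjamini-Hochberg adjustment, all of them negative and all with Magi1. In lung Tst was low where Magi1 was high, with Pearson's r = -0.605 over 24 samples (permutation adjusted p = 0.0203) and Spearman's rho = -0.636 (permutation adjusted p = 0.0164). The sign was the same within each lung genotype, with r = -0.627 among WT, -0.447 among Cic-S-KO and -0.807 among Cic-L-KO samples, and r was -0.554 without the 2 samples farthest from the median. In cortex Tst and Magi1 gave r = -0.612 over 23 samples (permutation adjusted p = 0.035), while rho = -0.396 did not pass (permutation adjusted p = 0.209) and r was -0.462 without the 2 farthest samples. Abhd4 and Magi1 in cortex gave r = -0.578 (permutation adjusted p = 0.0434), with rho = -0.577 (permutation adjusted p = 0.0686) and r = -0.447 without the 2 farthest samples. In cerebellum Tst and Magi1 showed no such relation, at r = 0.041 (permutation adjusted p = 0.863). The opposite movement within groups stands beside the same direction of difference between Cic-L-KO and WT.

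The share of reads from mitochondrial genes moved with this pattern in cortex. It ran from 4.62% to 6.40% over cortex samples. Its median was 5.95% in Cic-L-KO, 5.48% in WT and 5.19% in Cic-S-KO cortex, and 5.28%, 4.94% and 5.18% in the same order in cerebellum, so that the Cic-L-KO samples had the highest median share in both regions. In cortex its within-group r was -0.700 with Magi1, 0.514 with Tst and 0.568 with Abhd4. In lung the same share ran only from 1.53% to 1.79% and its r was -0.229 with Magi1 and 0.287 with Tst. In cerebellum its r was 0.299 with Magi1 and 0.453 with Tst. With library size the within-group r of Magi1 and Tst lay between -0.281 and 0.274 in the 3 tissues. With the mitochondrial share as a covariate the Cic-L-KO differences from WT in cortex were 0.33 for Abhd4, 0.42 for Tst, 0.35 for Magi1 and 0.66 for Fam189a2, and the Cic-S-KO difference of Magi1 in cortex was -0.12 (adjusted p = 0.0529).

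**Figure D4:**
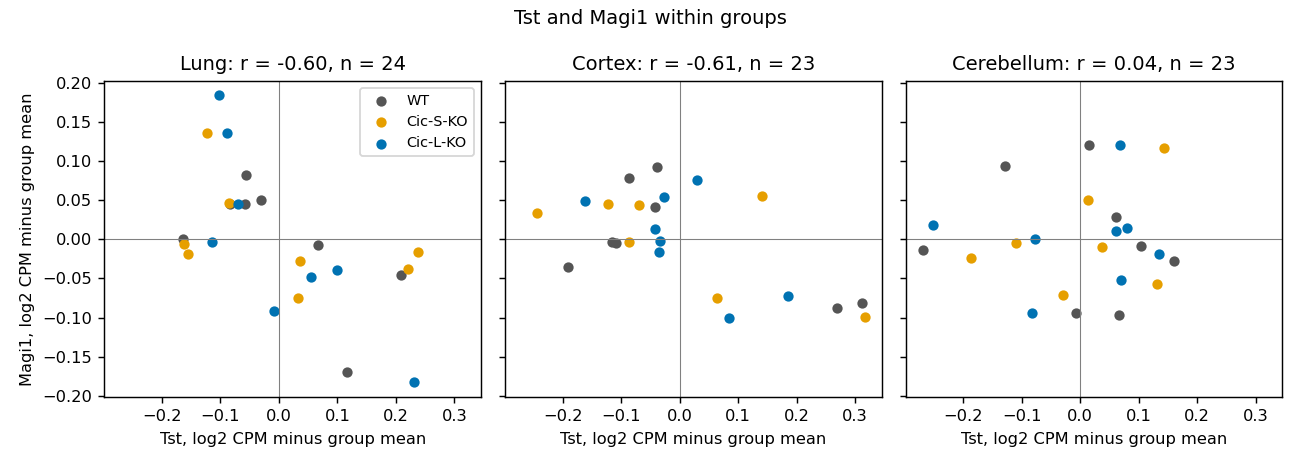
Each point is 1 sample, placed by its log2 CPM minus its group mean for Tst (horizontal) and Magi1 (vertical), with genotype by colour and 1 panel per tissue. Lung and cortex points run from upper left to lower right (r = -0.605 and -0.612), and cerebellum points do not (r = 0.041).

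Genes whose sample-to-sample variation was most like that of each member were named from 10956 genes over the 70 samples, after taking away group means. For Abhd4 these were Sirt2, a deacetylase abundant in oligodendrocytes (r = 0.62), Nkd1 (0.60) and Eef2 (0.60). For Tst they were S100a16 (0.64), Serpinb1a (0.63) and Fkbp7 (0.61). For Magi1 they were Copg1 (0.60), Gnas (0.59) and Tenm3 (0.58). For Fam189a2 they included Pbxip1 (0.63) and Mmp15 (0.62). These samples share library and depth, and at most 0.356% of genes reached r above 0.5 with any of the 4. None of the 4 was near the top of another's order: Tst came in place 10905 of 10956 for Magi1, with r = -0.42, and the closest pair was Abhd4 and Tst at r = 0.19. That value pools the tissues: the pair gave r = -0.303 in lung, 0.524 in cortex and 0.07 in cerebellum. None of these passed the permutation test after adjustment.

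Over the 9 group means, centred within each tissue, the picture is the one the choice of genes fixes, and it is given as a description. The most alike were Sec14l2 for Abhd4 (r = 0.99), Chchd5 for Tst (0.99), Pdhb for Magi1 (0.99) and Mbd3 for Fam189a2 (0.99). Between 21.4% and 22.7% of the 10956 genes had r above 0.5 with each member. Fam189a2 came in place 4 for Abhd4 (r = 0.98) and Abhd4 in place 6 for Fam189a2, whereas Magi1 came in place 152 for Abhd4 and in place 329 for Fam189a2. These places rest on 9 points that include the groups that chose the genes, so nothing is read from them.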

How the data were processed

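RNA was taken from flash-frozen tissue, selected for polyadenylated transcripts and sequenced, per the labels' protocols. The authors deposited raw read counts per gene for 50789 versioned Ensembl identifiers in 70 samples, and the submitters' processing notes list STAR 2.7 and GRCm38.p6. The counting program, its annotation and its use of strand are not given in the sources used here, so reads from antisense genes cannot be told apart. Of the identifiers, 50725 matched GENCODE M21 by number, from which names, lengths and positions came, and 0 columns lacked a sample.

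Groups came from the labels. Each tissue was fitted over its 3 genotypes, and brain over 46 samples, with edgeR 4.0.16 (R 4.3.3): filterByExpr, TMM scaling, robust quasi-likelihood test, Benjamini-Hochberg adjustment over all genes and a threshold of 0.05. CPM used TMM-scaled library sizes within a tissue, log2 CPM a prior count of 2, and RPKM the union of exons. Correlations within groups used 100000 permutations within groups. Depth limits precision least for Magi1 and most for Fam189a2 in brain, where 201 reads was the lowest count. No pair among 238 replicate pairs was identical, and counts differed by 4.17 to 40.4 times sampling noise (chi-square per degree of freedom). On counts simulated for the Cic-S-KO comparison in lung, with 200 of 16545 genes changed by 1 on the log2 scale, 173 were recovered. For the Cic-S-KO effect in cortex against cerebellum, 136 of 200 were recovered and 6.85% of calls were false. The Cic-S-KO differences of the 4 genes were all smaller than 1, so these counts do not say how often such differences pass.

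The 4 genes, the pathway lists, the markers and the rules for named genes were chosen with earlier results of these data known. The text names each list's closest paralogs, up to 4 genes per contrast with the smallest p past the threshold, the nearest protein-coding genes and, per member, the 3 genes of highest correlation. Some genes that meet these rules are not reported here. Alternatives were RLE factors, DESeq2 1.42.0, other count filters, a non-robust fit, only the compared genotypes, a replicate block, a Y-linked covariate and, added after seeing the data, GC bins, the mitochondrial share and leaving out lung Cic-S-KO replicate 5.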

Additional observations from a re-analysis of the deposited data

Results flagged for a closer look

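Abhd4 in lung Cic-S-KO replicate 4 was at 80.8 CPM, while the other 7 samples of that group lay between 67.1 and 73.2 CPM, a gap of 0.555 of the group's range. It was the only such sample among 36 combinations of gene and group, where chance gives about 1.8.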

How the results depend on the processing

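All 124 checks of the Cic-L-KO differences from WT kept their direction and stayed within 1 SD of the value reported. They covered the 4 genes, 3 tissues and every alternative run. The same samples chose the genes, so nothing is read from the kept direction. With the mitochondrial share as a covariate the cortex differences of Abhd4 and Tst fell by more than their SE of 0.062 and 0.075. Of 124 checks of Cic-S-KO against WT, 119 kept direction and side of the threshold. The cerebellar differences passed in 4, for Tst with DESeq2 (0.18, adjusted p = 0.0441) and a Y-linked covariate (0.19, 0.0441), and for Fam189a2 with DESeq2 (0.24, 0.0420) and with only the compared genotypes (0.24, 0.0459). The Abhd4 difference in Cic-S-KO lung turned to -0.015 with GC bins, and the cortex against cerebellum difference of the Cic-L-KO effect on Fam189a2 turned to -0.003 with RLE factors and DESeq2. With the mitochondrial share as a covariate, Cic-S-KO minus Cic-L-KO in cortex was -0.18 for Abhd4, -0.26 for Tst and -0.47 for Magi1. The causes were not tested.

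Counts of genes past the threshold moved in 10 of 76 checks. For Cic-S-KO cortex 1108 genes became 732 with no low-count filter, 654 with only the compared genotypes, 627 with a replicate block, 449 with GC bins and 472 with the mitochondrial share. For Cic-S-KO cerebellum 1370 became 591 with the replicate block and 673 with the mitochondrial share, and for Cic-L-KO cerebellum 3580 became 2287 with the mitochondrial share. For Cic-L-KO lung 817 became 1285 with the replicate block. For the cortex against cerebellum difference of the Cic-S-KO effect 812 became 446 with no low-count filter.

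Between genotypes of a tissue, same-numbered samples correlated over 0.1 in from 1 of 8 pairs (Cic-L-KO and WT cortex) to 6 of 8 (Cic-L-KO and WT lung), never in every pair. Between cortex and cerebellum they did so in 7 of 7 Cic-S-KO pairs, 7 of 8 WT pairs and 2 of 8 Cic-L-KO pairs. Mean r in these was 0.176, 0.167 and 0.075. Between lung genotypes, which cannot share animals, it was 0.141 for Cic-S-KO and 0.16 for Cic-L-KO with WT. These correlations do not settle whether the numbers pair the regions. In Cic-S-KO brain the library names skip 1 number, and cortex and cerebellum skip the same one, as shared animals would give, though the labels do not state it. Same-numbered pairs and blocks of Cic-S-KO brain with WT therefore mostly join different library numbers. With a replicate block in the brain fit the WT differences were -0.16 for Abhd4, -0.44 for Tst, 0.74 for Magi1 and -0.14 for Fam189a2, and the block changed no call of the 4 genes. Under RLE, DESeq2 and GC bins, 0 of 77 calls among the listed genes changed sign, and 14 were lost with GC bins.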
